A study of Mus musculus with 200 samples.

Results

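Medullary thymic epithelial cells without a working Aire gene were divided by the amount of MHC class II protein on their surface, and the transcripts of the brighter, upper group and the dimmer, lower group were compared. The series holds 200 single cells, of which 100 came from Aire-knockout (KO) mice and 100 from Aire wild-type (WT) mice, and the KO cells are described here. Within each GFP gate (KO_GFPhi and KO_GFPlo) and each of the 2 sort dates, cells above the median of the MHC class II antibody channel of the cytometer made up the upper group, and cells at or below that median made up the lower group. Pooled over these 4 strata there were 49 cells in the upper group and 51 in the lower group. No transcript entered this division.

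Both genotypes were female B6xNOD mice aged 5 weeks, and KO and WT mice alike carried an Aire-GFP transgene, so that GFP marks cells in which the Aire promoter is active. Cells were gated as negative for CD45 and Ly51 and positive for MHC class II and GFP, with high GFP in KO_GFPhi and low GFP in KO_GFPlo, so cells without surface MHC class II are missing from every group. The labels name no animal and do not say which part of Aire the knockout allele removes. Each group therefore counted as 1 sample of cells, no test was made, and differences between cells, animals and dates are shown through the strata.

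MHC class II molecules are pairs of an alpha and a beta chain that show peptides from endosomes to CD4+ T cells. The invariant chain, made by Cd74, fills their groove until H2-DM exchanges it for a peptide, while H2-O restrains H2-DM. Their genes are switched on together by the coactivator Ciita, which binds no DNA itself but sits on RFX, CREB and NF-Y proteins at the S-X-Y boxes of the promoters. In the thymic medulla, high surface MHC class II and Cd80 mark the mature epithelial cells, among them those that express Aire, the factor that lets many tissue-restricted genes be transcribed there.

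The promoters of the class II genes are shown because these genes share one switch and their transcripts are the ones set against the surface protein below. Each line holds the 120 bases before the RefSeq start of the gene (build GRCm38.p6), read 5′ to 3′ on the strand of the gene, and capitals mark TGATTGG, the form of the Y box searched for on both strands, which is read CCAATCA on the other strand.
H2-Aa (chr17:34287824-34287943, minus strand): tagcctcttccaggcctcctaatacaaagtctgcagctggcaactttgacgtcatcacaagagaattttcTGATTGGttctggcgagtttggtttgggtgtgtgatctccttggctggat
H2-Eb1 (chr17:34305747-34305866, plus strand): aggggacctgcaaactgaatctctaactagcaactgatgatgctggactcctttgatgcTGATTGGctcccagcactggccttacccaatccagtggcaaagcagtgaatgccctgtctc
H2-Eb2 (chr17:34325555-34325674, plus strand): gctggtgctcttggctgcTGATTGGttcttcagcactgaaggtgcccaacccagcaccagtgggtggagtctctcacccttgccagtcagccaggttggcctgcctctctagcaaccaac
H2-DMb1 (chr17:34153071-34153190, plus strand): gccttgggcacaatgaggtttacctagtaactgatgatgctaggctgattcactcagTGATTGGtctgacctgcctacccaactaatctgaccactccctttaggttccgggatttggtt
H2-DMb2 (chr17:34145129-34145248, plus strand): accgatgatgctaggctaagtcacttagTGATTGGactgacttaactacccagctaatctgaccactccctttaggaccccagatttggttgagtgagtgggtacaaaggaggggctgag
H2-Oa (chr17:34092259-34092378, plus strand): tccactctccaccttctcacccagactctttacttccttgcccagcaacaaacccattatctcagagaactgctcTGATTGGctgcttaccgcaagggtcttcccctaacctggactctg
H2-Ob (chr17:34238785-34238904, plus strand): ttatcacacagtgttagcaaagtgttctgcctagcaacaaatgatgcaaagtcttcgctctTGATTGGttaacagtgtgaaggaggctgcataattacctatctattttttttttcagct
Among 10 genes of class II chains, H2-DM, H2-O and the invariant chain Cd74, 8 matched a promoter. Within 250 bases before the start, TGATTGG was found on either strand in 7 of these 8 genes. Over all RefSeq promoters of the same length it was found in 8.38% of 27025 genes and in 7.23% of 32851 promoters. Of the 19 genes of class II presentation, 14 matched and 8 held these letters. H2-Ab1 was not matched.

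The 49 upper cells gave 2172403 counts and the 51 lower cells 2686737 counts. The strata gave unequal shares of these. In KO_GFPhi they were 256711 upper and 595588 lower counts on the first date, and 1153642 and 1005959 on the second. In KO_GFPlo they were 268225 upper and 409847 lower counts on the first date, and 493825 and 675343 on the second. Ratios of summed counts over all KO cells therefore also carry the mix of strata. A KO cell had between 2429 and 253652 counts, and the median total was 26101 in the upper group and 28631 in the lower group. After thinning to 10000 counts, the median number of genes detected was 2574 in 44 upper cells and 2598 in 48 lower cells, against 3713 and 4121 in all cells before thinning. Median forward scatter, which follows cell size, was 197600 units in the upper group and 177896 units in the lower group. Despite the CD45-negative gate, 17 upper and 21 lower cells had more counts of leukocyte markers than of epithelial markers. The 12 of these in KO_GFPhi had 840 CPM of Aire, 1422 of Krt8 and 10.2 of Ptprc, which makes CD45, against 809, 1850 and 2.89 CPM in the other 36 KO_GFPhi cells. The 26 in KO_GFPlo had 221 CPM of Aire, 365 of Krt8 and 173 of Ptprc, against 427, 1642 and 15.3 CPM in the other 26 KO_GFPlo cells. When only lineage markers of B cells, dendritic cells, macrophages and T cells were counted, with the pan-leukocyte genes set aside, this was so in 5 upper and 10 lower cells, all of them KO_GFPlo, of which 5 upper and 9 lower cells came from the second date. On that date and in that gate, the CD45 antibody signal ran from -1863 to 399 units in the 14 lineage-marked cells and from -2702 to 403 units in the other 16, with medians of -11.5 units in the lineage-marked and -395 units in the other cells. Intervals given below are exact 95% intervals for the counts alone and cover neither amplification nor differences between cells and animals.

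The antibody signal, which made the division, is given as a description. Its median was 86637 arbitrary units (range 53063 to 214633) in the upper group and 46993 units (13718 to 79345) in the lower group. In KO_GFPhi the median of the upper cells was 1.24 times that of the lower cells on the first date, with 4 upper and 5 lower cells, and 2.20 times on the second date, with 19 upper and 20 lower cells. In KO_GFPlo it was 1.94 times on the first date, with 11 cells in each group, and 1.74 times on the second, with 15 in each. The cut was narrow everywhere: the cells just above and just below or at it had 81359 and 79345 units in KO_GFPhi of the first date, 78872 and 75786 units in KO_GFPhi of the second, 63740 and 61352 units in KO_GFPlo of the first, and 53063 and 52445 units in KO_GFPlo of the second.

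Summed over all KO cells, the transcripts of MHC class II presentation were at nearly the same level in both groups, but cells made with the 2 primer sets named in the labels, ls and umi, lay on opposite sides of a ratio of 1. The 19 genes of this list summed to 30253 counts per 1000000 counts (CPM) in the upper group and 30127 CPM in the lower group, a ratio of 1.004 (0.994 to 1.01). Per cell the sum ran from 7465 through a median of 26259.6 to 52142 CPM in the upper group, and from 7419.6 through 26901 to 90114 CPM in the lower group, so the groups overlapped throughout. Of the 18 members with at least 20 counts, 10 lay above a ratio of 1 and 8 below it, where 51.2% of all 12420 genes with at least 20 counts lay above and 48.8% below. The median of the members was a log2 ratio of 0.04, against 0.03 over all these genes. Only H2-Ea-ps, the broken alpha chain gene of I-E that these strains do not make, was 2-fold higher, with 77% of its counts in 1 cell, and no member was 2-fold lower. Over all genes 19.8% were at least 2-fold higher and 17.1% at least 2-fold lower, or 36.9% either way.

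**Figure D1:**
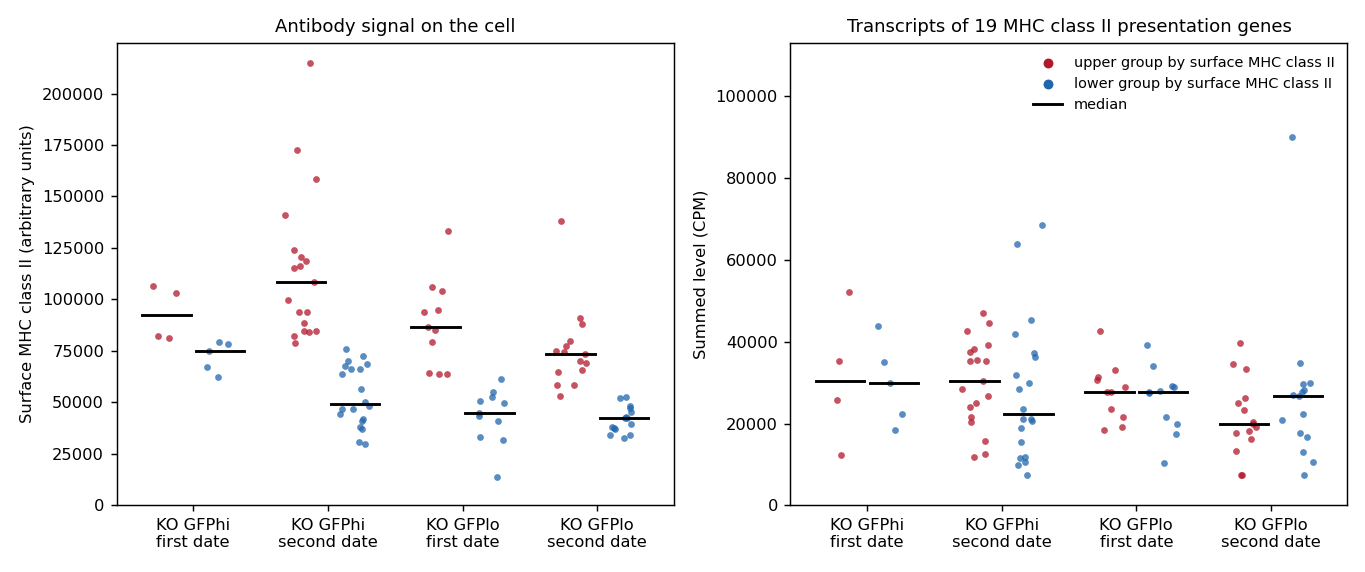
Surface MHC class II signal (left, arbitrary units) and summed transcripts of 19 MHC class II presentation genes (right, CPM) in each KO cell, by GFP gate and sort date, with the upper group in red left of the lower group in blue and a black line at the median. The antibody signal separates the groups by construction, while the transcript sums overlap in all 4 strata.

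With ls primers the class II sum was 29756 CPM in 38 upper and 32916 CPM in 40 lower cells, a ratio of 0.904 (0.894 to 0.914). With umi primers it was 32445 CPM in 11 upper and 20388 CPM in 11 lower cells, a ratio of 1.59 (1.55 to 1.63), with per-cell medians of 33409 CPM in upper and 19912 CPM in lower cells. Of all counts of the umi cells, 1 cell held 19.7% in the upper and 1 cell 19.2% in the lower group. The umi cells were spread unevenly over strata, with 3 upper and 6 lower cells in KO_GFPhi and 5 upper and 4 lower cells in KO_GFPlo of the second date. The cause of the difference between primer sets was not tested. By stratum the class II sum was a little higher in the upper group in 3 of 4 strata and lower in the fourth. It was 35421 CPM in upper and 33199 CPM in lower KO_GFPhi cells of the first date, and 32571 CPM in upper and 28852 CPM in lower KO_GFPhi cells of the second. In KO_GFPlo it was 29125 CPM in upper and 25998 CPM in lower cells of the first date, against 22763 CPM in upper and 31821 CPM in lower cells of the second, log2 differences of 0.09, 0.17, 0.16 and -0.48 in this order. The last stratum held 14 of the 15 cells marked by leukocyte lineage genes. Without those 15 cells the log2 ratio of the class II sum over all strata was 0.07, and without all 38 leukocyte-marked cells 0.18. Between the 33 cells with the most and the 33 with the least surface signal, taken evenly within strata, it was 0.22.

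Among the class II chains themselves, H2-Aa, the alpha chain of I-A (chr17:34282744-34287823, mm10), ran from 772 through a median of 5117 to 12809 CPM per cell in the upper group and from 943 through 4551 to 19799 CPM in the lower group. Summed, it was 6164 CPM in upper and 5721 CPM in lower cells, a ratio of 1.08 (1.05 to 1.10). The single cell with the most H2-Aa belonged to the lower group. H2-Ab1, the beta chain of I-A, had 5146 CPM in upper and 4904 CPM in lower cells, and H2-Eb1, the beta chain of I-E, had 5456 CPM in upper and 5206 CPM in lower cells. All 3 were detected in every KO cell. With umi primers alone the log2 ratios of H2-Aa, H2-Ab1 and H2-Eb1 were 0.86, 0.77 and 0.51, against -0.06, -0.07 and -0.04 with ls primers. The ratio of H2-Aa was above 1 in 3 of 4 strata, with log2 values of 0.07, 0.31, 0.23 and -0.37 in the order above. H2-Eb2, a second beta chain gene of I-E type, was higher in the upper group in 4 of 4 strata, at 616 CPM in upper and 472 CPM in lower cells (ratio 1.31, 1.21 to 1.41). Over all genes 5.55% were higher in 4 of 4 strata and 5.00% lower.

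Cd74, the invariant chain, was the most abundant member in both groups, at 9072 CPM in upper and 9249.5 CPM in lower cells (ratio 0.981, 0.963 to 0.999). It ran from 1116 through 8288 to 22009 CPM per cell in the upper group and from 2611 through 8112 to 23839 CPM in the lower group. Its log2 ratio was 0.64 with umi primers and -0.20 with ls primers. The editors of the bound peptide differed from one another. H2-DMa, the alpha chain of H2-DM, had 203 CPM in upper and 192 CPM in lower cells. H2-DMb2, one of its beta chains, was lower in the upper group in 4 of 4 strata, at 920 CPM in upper and 1355 CPM in lower cells, which is 1.47-fold lower (1.39 to 1.56). H2-DMb1, the neighbouring copy, had 272 CPM in upper and 230 CPM in lower cells. These copies are nearly identical, so the split of counts between them is uncertain. Of the chains of H2-O, H2-Oa had 494 CPM in upper and 437 CPM in lower cells, and H2-Ob had 278 CPM in upper and 376 CPM in lower cells.

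Ciita, the switch of the pathway, had nearly the same summed level in both groups, with 121 CPM in upper and 124 CPM in lower cells (ratio 0.980, 0.830 to 1.16). The strata disagreed, with log2 ratios of -1.41, 1.37, -0.99 and -1.23 in the order above. A single cell held 34.6% of the upper counts of Ciita, and another 33.7% of its lower counts. Ciita was found in 23 upper and 32 lower cells. Rfx5, the DNA-binding part of RFX, had 147 CPM in upper and 144 CPM in lower cells. Of the enzymes that cut the invariant chain, Ctss and Ctsl were lower in the upper group and Lgmn was not. Ctss, cathepsin S, had 661 CPM in upper and 922 CPM in lower cells (1.39-fold lower, 1.31 to 1.49), was lower in 3 of 4 strata, and came to a log2 ratio of -0.07 without the 15 lineage-marked cells, against -0.48 with them. Ctsl, cathepsin L, had 117 CPM in upper and 160 CPM in lower cells, and Lgmn, legumain, had 34.5 CPM in upper and 33.1 CPM in lower cells. Of the 7 genes whose promoters are printed above, 5 had ratios above 1, against 51.2% of all genes, and 2 below, against 48.8%. H2-Eb2 was highest and H2-DMb2 lowest.

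Along the whole range of antibody signal, rank correlations with the class II sum, H2-Aa, H2-Ab1, H2-Eb1 and Cd74 lay between -0.24 and 0.43. Spearman's rho between the surface signal and the class II sum was 0.30 in KO_GFPhi of the first date (9 cells), 0.33 in KO_GFPhi of the second (39 cells), 0.36 in KO_GFPlo of the first (22 cells) and -0.10 in KO_GFPlo of the second (30 cells). For H2-Aa it was 0.07, 0.43, 0.33 and 0.08 in the same order, and for Cd74 0.28, 0.14, 0.23 and -0.22. The lowest value was that of H2-Eb1 in KO_GFPlo of the second date. Among other genes examined, Aire gave 0.57, 0.29, -0.06 and 0.08, and Npc2 gave 0.25, 0.04, 0.49 and 0.35. Of the cytometer channels, forward scatter gave 0.10, 0.14, 0.03 and 0.15, side scatter -0.15, 0.19, 0.66 and 0.21, and GFP -0.62, 0.33, 0.21 and 0.21. Cells of a stratum share plates and pools, and these values describe the cells measured.

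**Figure D2:**
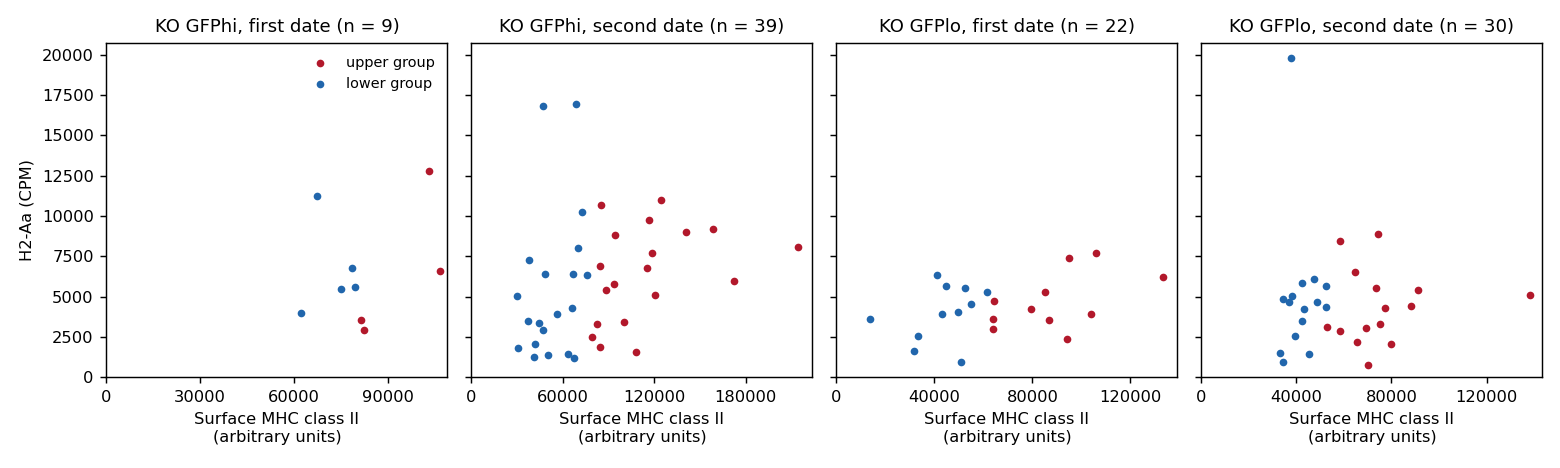
H2-Aa transcript level (vertical, CPM) against surface MHC class II (horizontal, arbitrary units) in each KO cell, 1 panel for each gate and sort date, upper group in red and lower group in blue. H2-Aa runs from 772 to 19799 CPM in the 89 cells at or below 110000 units and from 5080 to 10987 CPM in the 11 cells above, and the highest H2-Aa level, 19799 CPM, is in a lower cell.

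The WT cells, divided by the same rule into 49 upper and 51 lower cells, had surface medians of 89492 units in the upper and 46219 units in the lower group. Their class II sum was 25403 CPM in the upper and 21030 CPM in the lower group, a ratio of 1.21 (1.195 to 1.22). This WT value is given only pooled over strata, primer sets and leukocyte-marked cells, each of which moved the KO ratio. Of the 100 WT cells 42 were leukocyte-marked, against 38 of the 100 KO cells. B and plasma cell genes had 4630 CPM in upper and 17809 CPM in lower WT cells. Of its 19 members, all with at least 20 WT counts, 12 lay above 1, against 53.2% of all genes with as many WT counts. H2-Aa had a ratio of 1.35 (1.32 to 1.39) in WT, Cd74 1.16 (1.14 to 1.18) and Ciita 1.49 (1.27 to 1.76). The difference between the genotypes was not tested, since the animals behind the cells are not named.

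Costimulatory genes and the RANK pathway had nearly the same summed level in both groups. The 16 genes summed to 3439.97 CPM in upper and 3469 CPM in lower cells (ratio 0.992, 0.962 to 1.02). Of 15 members, 8 lay above 1 and 7 below, where 51.2% of all genes lay above and 48.8% below. Cd80, the costimulator used to grade the maturity of these cells, had 68 counts in 11 upper cells and 65 counts in 18 lower cells, or 31.3 and 24.2 CPM (ratio 1.29, 0.907 to 1.85). No difference was detectable at this depth. Cd86, its relative, had 45.6 CPM in upper and 27.2 CPM in lower cells, with 49.5% of the upper counts in 1 cell. The ratio turned round without library pool 6, to a log2 value of -0.32 against 0.74 with all pools, and stood at 2.08 without pool 11, the 12 pools being numbered in the order of their identifiers. Cd40, the receptor through which T cells signal to the epithelium, had 193 CPM in upper and 238 CPM in lower cells. Icosl, the ligand of ICOS and the leading gene of the list, had 1656 CPM in upper and 1645 CPM in lower cells. Tnfrsf11a, which makes RANK, had 385 CPM in upper and 365 CPM in lower cells, and Relb, the NF-kB subunit needed for medullary epithelium, had 231 CPM in upper and 235 CPM in lower cells.

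Aire transcripts were still counted in the KO cells, at 625 CPM over all KO cells and 421 CPM over all WT cells. Because the deleted stretch of Aire is unknown here, reads near the 3′ end may or may not bear on it. The level was therefore used to check neither label nor knockout. Within KO cells Aire ran from 0 through a median of 493 to 3026 CPM per cell in the upper group and from 0 through 271 to 7536 CPM in the lower group, with counts in 38 upper and 40 lower cells. Summed, it was 823 CPM in upper and 465 CPM in lower cells, a ratio of 1.77 (1.64 to 1.90). The strata disagreed, with log2 ratios of 1.96, 0.37, -0.08 and 3.08, and the mean of per-cell levels gave a log2 ratio of 0.05 in place of 0.82. Fezf2, the other regulator of self antigens in these cells, had 499 CPM in upper and 505 CPM in lower cells. The 14 genes of mature medullary epithelium together had a ratio of 1.004 (0.973 to 1.04), although 10 of 13 members lay above 1, against 51.2% of all genes. Without Ccl22, a chemokine described below, the other 13 had 3112 CPM in upper and 2535 CPM in lower cells, a ratio of 1.23 (1.19 to 1.27), a removal chosen after the values were seen. Without Aire, the leading gene of the list, and with Ccl22 kept, the ratio was 0.872, so the direction depends on single members. The genes of less mature medullary epithelium had a ratio of 0.959 (0.928 to 0.990).

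A pair of genes of epithelial structure had higher summed levels in the upper group, Krt8 in every stratum and Epcam unevenly. Krt8, a keratin of simple epithelia, had 1825 CPM in upper and 1159 CPM in lower cells, was higher in 4 of 4 strata, and ran from 0 through 1341 to 5897 CPM per cell in the upper group and from 0 through 1118 to 3549 CPM in the lower group. Epcam, the epithelial adhesion molecule, had 384 CPM in upper and 226 CPM in lower cells (ratio 1.70, 1.53 to 1.89), but its log2 ratios by stratum ran from -4.47 in KO_GFPhi of the first date to 2.44 in KO_GFPlo of the second. Spearman's rho of Epcam with the surface signal was -0.66, -0.21, -0.07 and 0.33 by stratum, negative in 3 of 4. The 15 genes of the epithelial list had a ratio of 1.25. Of 14 members, 10 lay above 1, against 51.2% of all genes, and 1 was at least 2-fold higher, against 19.8%. Krt14, Foxn1, Spint2 and Krt17 lay below 1, at log2 ratios of -0.30, -0.38, -0.04 and -0.01. Without the 38 leukocyte-marked cells, which these same genes helped to choose, the list had a log2 ratio of -0.02. Cortical epithelium genes had a ratio of 1.19 and thymic tuft cell genes 1.15.

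Markers of other cell types were mostly lower in the upper group. The 20 genes of dendritic cells and macrophages in the table summed to 606 CPM in upper and 2028 CPM in lower cells (ratio 0.299, 0.281 to 0.317), and 8 of 13 members were at least 2-fold lower, against 17.1% of all genes. A gene with few counts passes the minimum of 20 counts mainly through the group in which it is high, so this count supports nothing. Lyz1, lysozyme of myeloid cells, had 47.9 CPM in upper and 654 CPM in lower cells, with 54.4% of its counts in 1 lower cell, and cannot be told fully from its copy Lyz2. Its log2 ratio was -3.77, and -2.55 without pool 12. Per cell the list ran from 57.1 through 478 to 3321 CPM in the upper group and from 0 through 508 to 30871 CPM in the lower group, so the medians were alike and 1 lower cell held 29.6% of all counts. The list was lower in 3 of 4 strata, most in KO_GFPlo of the second date, with 786 CPM in upper and 6213 CPM in lower cells. Without the 15 lineage-marked cells its log2 ratio was -0.08, a value tied to the choice of those cells by these same genes. All 12 pan-leukocyte genes lay below 1, against 48.8% of all genes, and 5 were at least 2-fold lower, against 17.1%. They summed to 2633 CPM in upper and 3841 CPM in lower cells. Ptprc had 21.2 CPM in upper and 56.9 CPM in lower cells.

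B and plasma cell genes had a ratio of 0.517 (0.484 to 0.552), with 5 of 13 members at least 2-fold lower, against 17.1% of all genes, and 1 at least 2-fold higher, against 19.8%. Members with few counts can pass the minimum of 20 counts mainly through lower cells here too, so these member counts support nothing. Per cell, though, the median of the list was 317 CPM in upper and 170 CPM in lower cells, and in KO_GFPhi the log2 ratio was 0.29 on the first and 0.43 on the second date. The log2 ratio of the list was -0.95, and -1.55 without pool 11. Cd79a, a chain of the B cell receptor, had 62.6 CPM in upper and 361 CPM in lower cells, and was found in 12 upper and 13 lower cells. T lineage genes had a ratio of 1.09 (0.947 to 1.25), and fibroblast and endothelial genes 0.872 (0.750 to 1.01). The part of these cells in the results for other genes was not tested beyond the values without them. In single cells sorted from tissue, a cell of another type and RNA carried over from one cannot be told apart here.

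**Figure D3:**
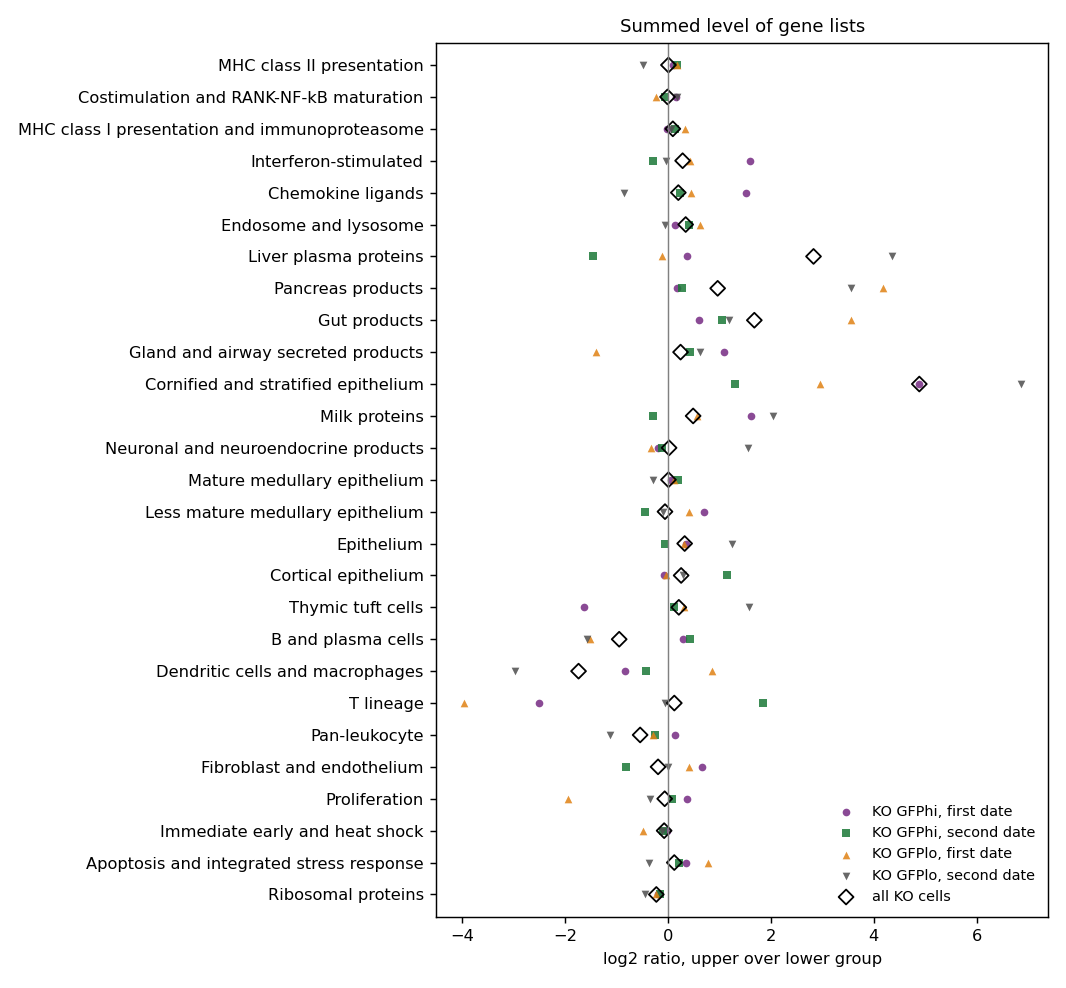
Log2 ratio of the summed level of each gene list, upper over lower group (horizontal), for all KO cells (open diamonds) and for each gate and sort date (filled symbols). MHC class II presentation lies at 0.01 over all cells, the cornified epithelium list is above 0 in all 4 strata, and ribosomal proteins are below 0 in all 4.

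Chemokine genes differed one by one rather than as a family. The 30 ligands in the table had a ratio of 1.15 (1.11 to 1.18), which came to 1.0 without Cxcl10. Of 20 members, 13 lay above 1, against 51.2% of all genes. Ccl25, the ligand of CCR9 that draws thymocyte precursors, had 372 CPM in upper and 110 CPM in lower cells (ratio 3.38, 2.95 to 3.87), was higher in 4 of 4 strata, and was counted in 25 upper and 25 lower cells, with 42% of the upper counts in 1 cell. Ccl19, a ligand of CCR7, had 1178 CPM in upper and 797 CPM in lower cells and was also higher in 4 of 4 strata. Ccl21a, the other CCR7 ligand listed, had 95.7 CPM in upper and 107 CPM in lower cells. Ccl22, a ligand of CCR4 made by dendritic cells and by medullary epithelium, had 56.2 CPM in upper and 620.5 CPM in lower cells, 11-fold lower (9.19 to 13.4). That difference lay in KO_GFPlo, at 132 CPM in upper and 2014 CPM in lower cells of the second date, and without the 15 lineage-marked cells its log2 ratio was 0.38. In WT cells Ccl25 and Ccl22 had ratios of 0.623 and 4.78, on the other side of 1 from the KO cells.

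Interferon-stimulated genes had a ratio of 1.22 (1.17 to 1.26), and 0.984 without Cxcl10. Cxcl10, a ligand of CXCR3 induced by interferon, had 1421 CPM in upper and 924 CPM in lower cells, with log2 ratios of 1.87, -0.37, 0.08 and 0.94 by stratum. Of the 19 members with at least 20 counts, 6 were at least 2-fold higher, against 19.8% of all genes, and 3 at least 2-fold lower, against 17.1%. Of the higher ones, Irf7 had 29 upper and 3 lower counts, Rsad2 had 25 and 11, and Ifit2 had 82% of its counts in 1 cell. Of the lower ones, Gbp2 had 18 upper and 297 lower counts, with 59% of its counts in 1 cell. Such members pass the minimum mainly through 1 group or 1 cell, so these member counts support nothing. MHC class I presentation and the immunoproteasome had a ratio of 1.07 (1.05 to 1.08), and no member reached 2-fold. B2m, the light chain of class I, had 7123 CPM in upper and 6138 CPM in lower cells, and H2-K1, a heavy chain, had 3316 CPM in upper and 3397 CPM in lower cells.

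Npc2 stood apart in the endosome and lysosome list. This gene (chr12:84754562-84773152, mm10) makes a lysosomal protein that carries cholesterol out of the lysosome. It ran from 0 through a median of 1548 to 20912 CPM per cell in the upper group and from 34.4 through 856 to 5217 CPM in the lower group. Summed, it was 3165 CPM in upper and 1184 CPM in lower cells, a ratio of 2.67 (2.56 to 2.79), higher in 4 of 4 strata with log2 values of 0.30, 1.32, 2.49 and 1.30. The log2 ratio was 1.42 over all cells and 0.54 without pool 12, and it reached 1.96 without another pool. The list as a whole had a ratio of 1.27, and 0.955 without Npc2, with 12 of 22 members above 1, against 51.2% of all genes. In WT cells Npc2 had a ratio of 1.21 (1.15 to 1.26).

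**Figure D4:**
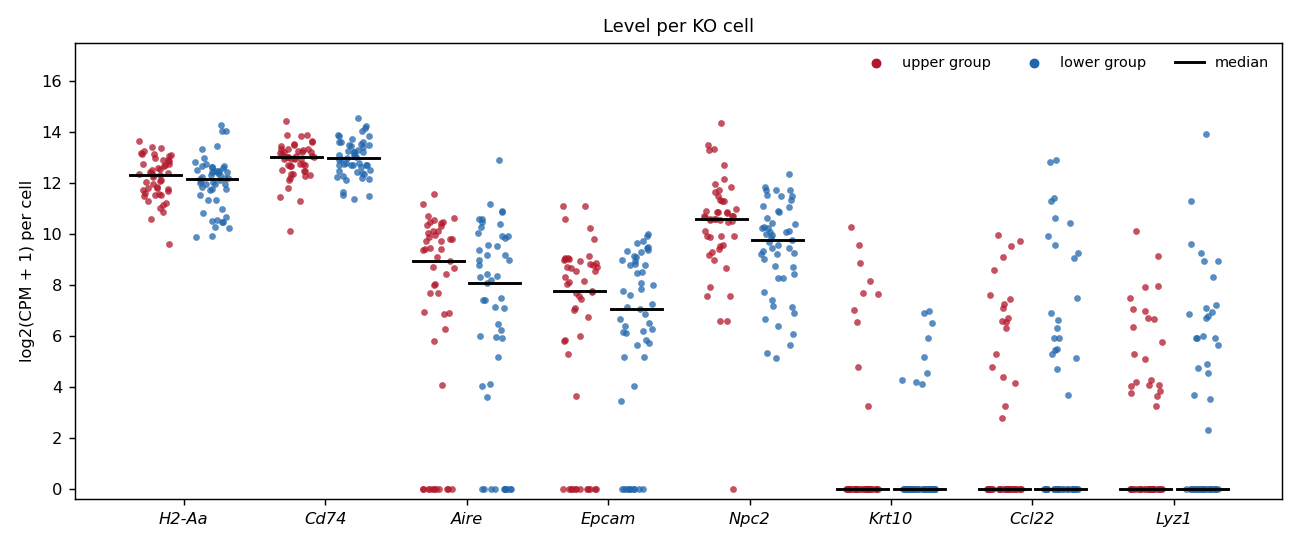
Level of 8 genes in each KO cell as log2(CPM + 1), upper group in red left of the lower group in blue, with a black line at the median. H2-Aa and Cd74 are high in every cell of both groups, Aire, Epcam and Npc2 have a higher median in the upper group with wide overlap, and Krt10, Ccl22 and Lyz1 are at 0 in most cells.

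Tissue antigens, the products of other organs that medullary cells show to T cells, differed widely in how many KO cells they were found in. Most lists had a higher summed level in the upper group. Per-cell medians were higher there for the cornified, gut and pancreas lists, 0 in both groups for liver, and lower there for the milk, neuronal and gland lists. Syt1, a synaptic vesicle protein, was found in 47 upper and 50 lower cells, Csn2, a casein, in 46 upper and 45 lower cells, and Calcb, a calcitonin-related peptide, in 40 upper and 41 lower cells, while Ins2, an insulin, was found in none. Cornified and stratified epithelium, a list of 20 genes, summed to 974 CPM in upper and 32.8 CPM in lower cells, and all 7 members with at least 20 counts were at least 2-fold higher. The other 13 had fewer than 20 counts, and a gene with few counts passes that minimum mainly through the group in which it is high, so this count supports nothing. A single upper cell held 46.3% of the counts of the list. The list was higher in 4 of 4 strata, at 269 CPM in upper and 8.40 CPM in lower KO_GFPhi cells of the first date, and 101 CPM in upper and 40.8 CPM in lower KO_GFPhi cells of the second. In KO_GFPlo it was at 403 CPM in upper and 51.2 CPM in lower cells of the first date, and 3688 CPM in upper and 31.1 CPM in lower cells of the second. Krtdap, a secreted protein of differentiating keratinocytes, had 361 CPM in upper and 4.47 CPM in lower cells, and Spink5, a protease inhibitor of the skin, had 183 CPM in upper and 2.23 CPM in lower cells, each found in 12 upper cells. Without pool 12 the log2 ratio was 4.29 for the list, against 4.89 with it, 5.01 for Krtdap, against 6.28, and 5.55 for Spink5, against 6.24. In WT cells the list had a ratio of 1.15 (1.09 to 1.204). The WT ratios of the other antigen lists were 3.35 for liver plasma proteins, 2.33 for gut products, 2.07 for pancreas products, 1.67 for neuronal products, 1.51 for gland and airway products and 1.25 for milk proteins.

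Gut products had 713 CPM in upper and 223 CPM in lower cells (ratio 3.20, 2.91 to 3.52), and were higher in 4 of 4 strata, with 25.6% of the counts in 1 upper cell. Only 8 of the 18 genes had at least 20 counts, several of them mainly through upper cells, so their directions support nothing. Fabp6, the bile acid carrier of the ileum, made up 55.1% of these counts, and the list had a ratio of 2.30 without it. The log2 ratio of the list was 1.68, and 1.06 without pool 5. Pancreas products had 282 CPM in upper and 144 CPM in lower cells and were higher in 4 of 4 strata. Reg3g, an antibacterial lectin, made up 88.4% of them, and 16 of the 24 genes had no count in any KO cell. Liver plasma proteins had 178 CPM in upper and 24.9 CPM in lower cells, of which 41% lay in 1 upper cell, and they were lower in 2 of 4 strata. Their log2 ratio was 2.83, with 1.86 without pool 12 and 3.54 without pool 8. Saa1, their leading gene, cannot be told fully from Saa2. Milk proteins had a ratio of 1.40, nearly all of it Csn2, at 2967 CPM in upper and 2120.04 CPM in lower cells. Per cell the median of Csn2 was 1033 CPM in upper and 1193 CPM in lower cells. Its log2 ratios by stratum were 1.61, -0.30, 0.56 and 2.04. Gland and airway products had a ratio of 1.18 (0.986 to 1.42) and neuronal products 1.01 (0.975 to 1.05). Per-cell medians of the gland and airway list were 59.3 CPM in upper and 70.6 CPM in lower cells. Those of the neuronal list were 1456 CPM in upper and 1834 CPM in lower cells, and its log2 ratios by stratum were -0.20, -0.13, -0.34 and 1.55.

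Across the whole table, most 2-fold differences were in genes with few counts. Of 12420 genes with at least 20 counts, 2455 were at least 2-fold higher and 2123 at least 2-fold lower. Of 803 genes with at least 1000 counts, 23 (2.86%) were at least 2-fold higher and 25 (3.11%) at least 2-fold lower, 5.98% in all, and their median absolute log2 ratio was 0.31. By the naming rule, which ranks genes by ratio among 1939 candidates, the 12 highest were Clrn3, Ccdc174, Mllt1, Krt10, Phyh, Nfatc2, Ift172, Plxnb2, Tnnt2, Ppip5k1, Scnn1a and Atp2a3. Of these, 11 were higher in 4 of 4 strata, against 5.55% of all genes. The ratios chose these genes, so their values are given as a description.

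Clrn3, a clarin family membrane protein, had 45.6 CPM in upper and 2.23 CPM in lower cells, with counts in 13 upper and 3 lower cells. Krt10, the keratin of suprabasal epidermis, had 57.5 CPM in upper and 5.58 CPM in lower cells, and Tnnt2, the troponin T of heart muscle, had 59.4 CPM in upper and 7.07 CPM in lower cells. Phyh, an enzyme that breaks down branched fatty acids in peroxisomes, was the most widely detected of the 12, in 29 upper and 21 lower cells, at 154 CPM in upper and 17.1 CPM in lower cells. Nfatc2, a transcription factor of calcium signalling, had 179 CPM in upper and 20.1 CPM in lower cells and was the exception, lower in KO_GFPlo of the second date. Scnn1a makes a subunit of the epithelial sodium channel and Atp2a3 a calcium pump of the endoplasmic reticulum; they had ratios of 7.75 and 7.09. Without pool 11 the log2 ratios of Clrn3, Ccdc174, Krt10, Phyh, Ift172, Tnnt2 and Atp2a3 lay between 3.51 and 5.28, against 2.79 to 4.24 with it, while Clrn3 lay at 3.50 without pool 4 and Ppip5k1 at 3.77 without pool 1. In WT cells 7 of the 12 lay above 1, against 53.2% of all genes, and Krt10 had a WT ratio of 0.0951.

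The 12 lowest were Wdr12, Commd4, Bap1, Ctdsp2, Galnt1, Reep4, Bod1, Klc4, Smap2, Lmo7, Mum1l1 and R3hdm4. Of these, only Commd4, Galnt1, Bod1, Mum1l1 and R3hdm4 were lower in 4 of 4 strata, against 5.00% of all genes. Reep4, Klc4, Smap2 and Lmo7 were higher in 1 stratum, and Wdr12, Bap1 and Ctdsp2 had no count in 1 stratum. Wdr12, a factor of ribosome assembly, had 3.22 CPM in upper and 47.6 CPM in lower cells, with counts in 6 upper and 19 lower cells. Bap1, a nuclear deubiquitinase, had 5.52 CPM in upper and 41.3 CPM in lower cells. Galnt1, an enzyme that starts O-linked glycosylation, was found in 17 upper and 28 lower cells, at 30.8 CPM in upper and 175 CPM in lower cells, and was lower in 4 of 4 strata. After thinning to 10000 counts Wdr12 was found in 1 of 44 upper and 14 of 48 lower cells. Without pool 11, Klc4, Mum1l1 and R3hdm4 lay at log2 ratios between -2.80 and -3.70, against -2.03 to -2.37 with it, Bod1 and Reep4 kept too few upper counts for a ratio, and Ctdsp2 lay at -1.788, against -2.58. Without pool 12 R3hdm4 lay at -1.21, and without pool 9 Ctdsp2 at -3.24. In WT cells 3 of the 12 lay below 1, against 46.8% of all genes.

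**Figure D5:**
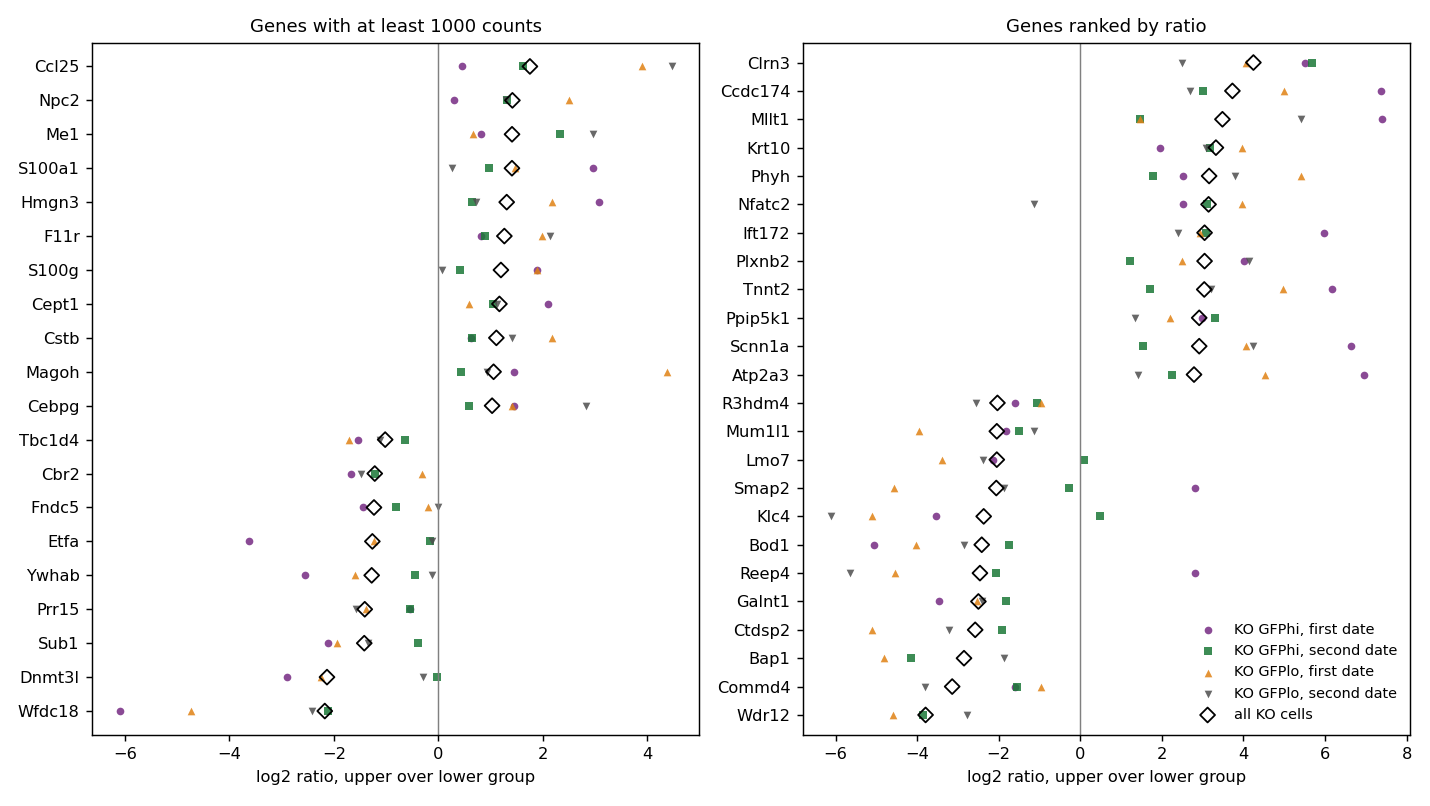
Log2 ratio, upper over lower group (horizontal), of the 20 genes with at least 1000 counts that were 2-fold apart with the same direction in 4 of 4 strata (left) and of the 12 highest and 12 lowest genes of the naming rule (right), for all KO cells (open diamonds) and by stratum (filled symbols). Strata spread over several log2 units for genes on the right, whose counts are few; a stratum with no count in either group has no symbol.

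Among the 803 genes with at least 1000 counts, 11 were at least 2-fold higher and higher in 4 of 4 strata, and 9 were at least 2-fold lower and lower in 4 of 4, a selection made after the values were seen. Over these 803 genes, 8.34% were higher in 4 of 4 strata and 12% lower. Beside Ccl25 and Npc2, the higher genes were Me1, S100a1, Hmgn3, F11r, S100g, Cept1, Cstb, Magoh and Cebpg. Me1, the cytosolic malic enzyme that supplies NADPH, had 595 CPM in upper and 224 CPM in lower cells, and Hmgn3, a nucleosome-binding protein, had 849 CPM in upper and 342 CPM in lower cells. F11r, the junctional adhesion molecule JAM-A, had 487 CPM in upper and 202 CPM in lower cells. Cstb, an inhibitor of cathepsins, had 684 CPM in upper and 317 CPM in lower cells. S100a1 and S100g, both calcium-binding proteins, had ratios of 2.66 and 2.30 in KO and 2.51 each in WT. Without pool 11 the log2 ratio of S100g was 1.787, against 1.199 with it. In WT cells 9 of the 11 lay above 1, against 48.1% of the genes at this depth.

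The 9 lower genes were Wfdc18, Dnmt3l, Sub1, Prr15, Ywhab, Etfa, Fndc5, Cbr2 and Tbc1d4. Wfdc18, a secreted whey acidic protein family member, had 626 CPM in upper and 2830 CPM in lower cells in KO, 4.52-fold lower (4.26 to 4.79), and a ratio of 0.224 in WT. A single lower cell held 36.3% of its KO counts. Sub1, a coactivator of transcription, had 262 CPM in upper and 702 CPM in lower cells in KO, and a ratio of 0.603 in WT. Dnmt3l, a partner of DNA methyltransferases, had 327 CPM in upper and 1436 CPM in lower cells, with 56.8% of its counts in 1 cell, and its log2 ratio of -2.13 was -0.63 without pool 6. It overlaps Aire on the opposite strand of chromosome 10 (Dnmt3l chr10:78041947-78063622, Aire chr10:78030022-78043610, mm10), and whether counting used the strand is not given in the sources used here, so both are uncertain. Etfa had a log2 ratio of -0.40 without pool 6, against -1.26 with it, and Prr15 -0.77 without pool 11, against -1.41. In WT cells 6 of the 9 lay below 1, against 51.9% of the genes at this depth.

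Ribosomal protein genes were slightly but broadly lower in the upper group, a list added after the values were seen. They summed to 109137 CPM in upper and 127973 CPM in lower cells, a ratio of 0.853 (0.848 to 0.857), and 68 of 76 lay below 1. Over all genes 48.8% lay below 1. Per cell the sum ran from 38407 through a median of 110811 to 190291 CPM in the upper group and from 21061 through 124179 to 241104 CPM in the lower group, so the groups overlapped widely. The log2 ratio was -0.20, -0.17, -0.24 and -0.45 by stratum, and 31 genes of the list were lower in 4 of 4 strata, out of 96 such genes among the 803. In WT cells the ratio was 0.844 (0.840 to 0.848) and 74 of 77 lay below 1, against 46.8% of all genes with at least 20 WT counts. Reads of processed pseudogenes cannot be told from their parent genes in this family, so single members are uncertain. Of the cell state lists, proliferation had a ratio of 0.955, immediate early and heat shock genes 0.948, and apoptosis and stress response genes 1.09.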

How the data were processed

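Per the labels, RNA of single sorted cells was copied from its poly(A) end, amplified by in vitro transcription and ligated to adapters. The authors deposited raw counts, whole numbers for each gene in each cell, and a metadata table with cytometer intensity in arbitrary units. The submitters' processing notes name HTSeq, SAMtools 0.1.19, Picard 1.79, TopHat, TopHat2 and the build mm10, without roles. In 19 KO cells the total exceeded the identifier count of the metadata, so the counts were read as tags, not molecules. No KO cell was removed, no doublets were called, and 0 value columns lacked a sample.

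Counts were summed over each group and scaled to 1000000 (CPM). To each sum 0.5 was added before log2. Intervals are exact (Poisson for levels, conditional binomial for ratios) and treat tags as independent. Genes were named when they had at least 100 counts, were seen in 10 or more cells of the group with the higher level, had no cell with over 25% of the counts of that group, and pointed the same way in mean level per cell and in share of cells. Gene models, pseudogenes and ribosomal proteins were skipped, and 12 genes per direction were taken. H2-Aa, H2-Ab1, H2-Eb1, Cd74, Ciita, Cd80, Cd86, Cd40, Aire, Fezf2 and Epcam were always named, and list members could be. Members and the 26 lists were chosen with earlier results of these data known. TMM scaling used edgeR 4.0.16 (R 4.3.3), the rest scipy 1.17.1, pandas 2.3.3, numpy 2.4.6 and matplotlib 3.10.9 under Python 3.11.15. GENCODE M21 gave positions. The ratio code was tested on simulated data.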

Additional observations from a re-analysis of the deposited data

Results flagged for a closer look

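For 2 gene lists, both strata of KO_GFPhi lay on one side of a ratio of 1 and both strata of KO_GFPlo on the other. B and plasma cell genes had a log2 ratio, upper over lower group, of 0.71 in KO_GFPhi and -1.54 in KO_GFPlo, a gap of 2.25. By date it was 0.29 and 0.43 in KO_GFPhi and -1.52 and -1.58 in KO_GFPlo. Proliferation genes had 0.40 in KO_GFPhi and -0.94 in KO_GFPlo, a gap of 1.34. By date they had 0.37 and 0.07 in KO_GFPhi and -1.96 and -0.35 in KO_GFPlo. In KO_GFPhi both pooled values lay above those of either date. The dates gave unequal shares of the counts of each group, so pooled values and gaps also carry the mix of dates. The difference between the gates was not tested for either list. The 15 cells marked by leukocyte lineage genes were all KO_GFPlo.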

How the results depend on the processing

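Of 105 lists and genes compared, 54 were at least 2-fold apart, and 42 of these kept their direction in every alternative run. Among the 54 are the genes of the naming rule and those picked among genes with at least 1000 counts. Their ratios, strata or per-cell means chose them, and the alternative runs use the same values. Their kept direction was thus partly fixed in advance and supports nothing. The log2 ratio of the MHC class II presentation summed level, 0.01 as reported, changed sign between subsets and was farthest from 0 with umi primers. By stratum it was 0.094 and 0.17 in KO_GFPhi and 0.16 and -0.48 in KO_GFPlo (first and second date), by gate 0.12 in KO_GFPhi and -0.24 in KO_GFPlo, and by date 0.090 and -0.020. It was -0.015 as a mean of per-cell levels, -0.041 under TMM scaling, which shifts every log2 ratio by -0.05, 0.22 between the extremes of surface signal, 0.16 with the cut made within forward scatter, and 0.031 without the cell with most counts of the list. It was 0.18 without leukocyte-marked cells, 0.070 without those marked by lineage genes (both this last removal and the removal of the top cell were chosen after seeing the data), -0.15 with ls primers and 0.67 with umi primers. Leaving out 1 of the 12 pools gave -0.030 to 0.080. Genes at least 2-fold apart numbered 4578 of 12420 (36.9%) as reported. Across alternatives they numbered between 3122 of 9906, with at least 50 counts, and 5460 of 13898, with at least 10 counts. The share ran from 31.5% with at least 50 counts to 65.3% (3821 of 5849) in KO_GFPhi of the first date. It was 61.1% in KO_GFPlo of the first date and 51.1% with umi primers, which are also small subsets. Reversed log2 ratios, upper over lower group, were as follows, and the cause was not tested. In KO_GFPhi of the second date these were Ccl22 (1.18), Cd79a (1.15), Klc4 (0.49), Lmo7 (0.092) and liver plasma proteins (-1.47), and in all KO_GFPhi cells Ccl22 (1.48), Cd79a (1.53), Smap2 (0.15) and liver plasma proteins (-1.05). In KO_GFPhi of the first date Lyz1 reversed (1.95), in KO_GFPlo of the first date Lyz1 (4.07), dendritic cells and macrophages (0.86) and liver plasma proteins (-0.13), and over the first date Lyz1 (3.03) and dendritic cells and macrophages (0.22). Dnmt3l reversed on the second date (0.20) and between the extremes of surface signal (0.27). With umi primers alone Ccl25 (-4.07), liver plasma proteins (-2.53), Prr15 (0.21) and Tbc1d4 (1.33) reversed. Without leukocyte-marked cells Cd79a reversed (1.41), and without lineage-marked cells Cd79a (1.39) and Ccl22 (0.38). No paired analysis was possible because replicate numbers only name cells and no test was made. Genes with under 10 counts in a subset gave no value there, and Cd80, Cd86 and Ciita have too few counts for small differences to be seen.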
